A study of Mus musculus with 2 samples.

Results

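In a hybrid cell, 1 gene can carry several annotated transcripts, and its allelic balance can be read separately over each of them. The genes described here are 170 protein-coding genes of F123 mouse embryonic stem cells (mESCs) whose protein-coding and long noncoding RNA (lncRNA) records gave different allelic shares. A record is 1 transcript of the gene, chosen by the study for each transcript biotype. The rule asked for 1 protein-coding and 1 lncRNA record in the same gene, each with at least 30 allelic reads and a TPM (a transcript level scaled by length and library size) of at least 1, and for a difference of at least 20 percentage points between their CAST shares. The CAST share is the percentage of allelic reads that carry the CAST base. Of 29833 genes in the table, 7345 protein-coding genes had both records and 3381 of them passed both minimums. Leaving out 34 of these by name (genes of ribosomal proteins, Uri1, Brms1l and Gnas; 5 of them differed by 20 points or more) left 3347 genes, of which 170 (5.08%) met the rule and 3177 did not. The shares chose the genes, so the differences are given as a description with no test.

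F123 is 1 male hybrid line from a cross of S129/Jae and Cast mice, with S129 as the maternal and CAST as the paternal genome. Total RNA came from 2 biological replicates of untreated cells that had been moved off feeder fibroblasts for at least 2 passages with LIF doubled. Both replicates are summed in the allelic counts, so no spread between them could be computed, and every interval below is an exact 95% (Clopper-Pearson) interval that covers counting error only. The 37178 records of the 19 autosomes held 16343693 allelic reads, of which 50.4% were CAST. A read that covers several variants enters at each of them, so counts are not independent molecules. The 8 mESC marker genes had TPM values of 14.4 (Esrrb) to 381 (Dppa5a), against 0.0363 to 3.06 for 8 fibroblast markers. Thy1 was the highest of the fibroblast markers and is itself 1 of the 170 genes.

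Many protein-coding loci also produce spliced transcripts without an annotated reading frame, among them transcripts that end early or use an upstream start. Annotation lists many of these as processed transcripts of the same gene. Such RNAs can be degraded, stay in the nucleus or act as RNA. At a heterozygous base, a read tells which parental chromosome the RNA came from, but it does not tell which of several overlapping transcripts it was copied from. The deposited allelic counts were taken over exons and introns of each span, so a lncRNA record is a window on the gene rather than a count of 1 RNA species. In all 170 genes the lncRNA transcript was a processed transcript on the same strand as the protein-coding one.

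The discordance ran in both directions. In 90 genes the lncRNA record was the more CAST one (2.69% of all 3347) and in 80 the more S129 one, while over all 3347 genes, whatever the difference, the lncRNA share was the higher one in 46.2%. The absolute difference had a median of 24.2 points and a range of 20 to 58.3 points, against a median of 3.45 points over all 3347 genes. CAST shares of the lncRNA records spread from 10.9% to 100% with a median of 57.1%, and those of the protein-coding records from 15.7% to 100% with a median of 53.3%. The rule used these shares, so how often each record lay near balance is a description only. The lncRNA records also had fewer allelic reads, a median of 105.5 against 995 in the protein-coding records. The lncRNA share lay between 40 and 60% in 38 of the 170 genes (22.4%), and the protein-coding share in 88 (51.8%). Over all 3347 genes, these figures were 70.1% and 76.8%. The lncRNA share was the one farther from 50% in 124 of the 170 genes, against 1842 of all 3347. The 2 records lay on opposite sides of 50% in 103, a count not made over all 3347. Nothing is read from these counts.

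**Figure D1:**
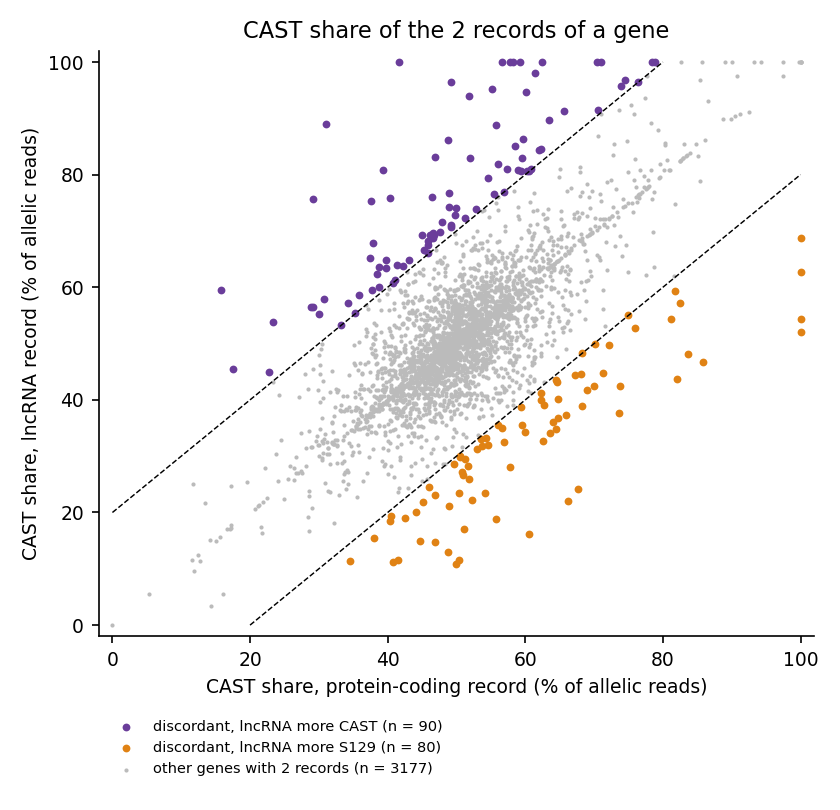
CAST share of the lncRNA record (y axis, % of allelic reads) against that of the protein-coding record of the same gene (x axis, % of allelic reads), with 1 point per gene. Purple points are the 90 discordant genes with the more CAST lncRNA record, orange points the 80 with the more S129 one, grey points the other 3177 genes, and dashed lines mark a difference of 20 points.

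Saraf, which encodes a regulator of store-operated calcium entry, had the largest difference. Its lncRNA record (chr8:34154575-34155413, GRCm38) had 93 CAST and 0 S129 reads. With the count of 0 taken as up to 3 reads, this allows an S129 share of up to 3.23%. Bounds for counts of 0 are made this way throughout and are tighter than the exact interval, here 96.1 to 100% CAST. Its protein-coding record (chr8:34154576-34170821) had 245 CAST and 343 S129 reads, or 41.7% CAST (interval 37.7 to 45.8). The 2 transcripts start 1 base apart, and the lncRNA one ends within the first part of the gene. But for this 1 base the lncRNA span lies inside the coding one, so its reads can also count in the protein-coding record. All 93 reads of the lncRNA record came from 1 variant, against 13 variants for the protein-coding record.

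Auh, an enzyme of leucine breakdown in mitochondria, showed a similar layout. The lncRNA record (chr13:52928489-52929652) held 111 CAST and 4 S129 reads at 4 variants, a CAST share of 96.5% (91.3 to 99). The protein-coding record (chr13:52840869-52929458) held 161 CAST and 166 S129 reads, 49.2% CAST (43.7 to 54.8). The lncRNA record at the 5′ end of Auh was thus almost fully CAST, and the whole protein-coding record was balanced. The 2 spans overlap in part, so CAST reads of the lncRNA record can also count in the protein-coding one. The Auh share outside the overlap was not computed. In 1110051M20Rik, the lncRNA record had 39 CAST and 0 S129 reads, which allows an S129 share of up to 7.69%. Its protein-coding record had 403 CAST and 308 S129 reads, 56.7% CAST (53.0 to 60.4).

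In Saraf, 1110051M20Rik and Zfp979 the lncRNA start nearly coincides with the coding start, while the ends lie apart. Their exons differ as well, with 39.8%, 51.1% and 13.6% of the lncRNA exon bases in coding exons. The lncRNA starts of Auh and Mycn lie 194 and 1209 bases from the coding start. The last 60 bases of the lncRNA transcripts are shown for 5 genes where these bases lie outside the coding exons. They are written 5′ to 3′ on the transcript strand, from GENCODE M21 (GRCm38). Whether the ends bear on the shares was not tested. Among the genes with the largest differences, Stxbp4, Dok2 and Gm14410 also had such ends and are not shown. Capitals mark the hexamers AATAAA and ATTAAA, known as poly(A) signals.
Saraf (chr8:34155354-34155413, plus strand): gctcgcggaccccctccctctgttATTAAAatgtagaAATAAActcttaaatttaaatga
1110051M20Rik (chr2:91418784-91418843, minus strand): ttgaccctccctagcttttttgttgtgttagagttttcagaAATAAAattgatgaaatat
Zfp979 (chr4:147639395-147639454, minus strand): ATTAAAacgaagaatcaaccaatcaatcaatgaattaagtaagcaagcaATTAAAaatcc
Auh (chr13:52928489-52928548, minus strand): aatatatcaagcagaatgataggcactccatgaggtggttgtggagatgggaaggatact
Mycn (chr12:12940944-12941003, minus strand): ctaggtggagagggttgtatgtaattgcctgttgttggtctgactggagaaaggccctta
Saraf and 1110051M20Rik carry a hexamer near the annotated end, and Auh and Mycn hold neither hexamer in this window. Of the genes not shown, Gm14410 holds a hexamer, and Stxbp4 and Dok2 hold neither. Either hexamer, searched on the transcript strand only, was present in the last 60 bases of 32 of the 170 lncRNA transcripts (18.8%), against 674 of 3170 lncRNA transcripts of the other genes (21.3%). A match is a run of letters, not a measured cleavage site.

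Among the other genes with a more CAST lncRNA record, Stxbp4, which encodes a syntaxin-binding protein, had the lowest protein-coding share of all 170. Its lncRNA record had 113 CAST and 77 S129 reads, 59.5% CAST (52.1 to 66.5), against 754 CAST and 4042 S129 reads, 15.7% CAST (14.7 to 16.8), in the protein-coding record. Both transcripts start within 11 bases of each other, yet the lncRNA record was CAST-sided in a gene that was mainly S129. Ppfia1, the adhesion scaffold liprin alpha 1, had 60 CAST and 0 S129 reads in a lncRNA record inside its 3′ part, which allows an S129 share of up to 5%. The whole Ppfia1 protein-coding record had 581 CAST and 424 S129 reads, 57.8% CAST (54.7 to 60.9). Dok2, an adaptor of tyrosine kinase signalling, had 78 CAST and 5 S129 reads in its lncRNA record, 94.0% CAST (86.5 to 98), and 42 CAST and 39 S129 reads in the protein-coding record, 51.9% CAST (40.5 to 63.1). The Dok2 lncRNA record starts 8.26 kb upstream and lies over Xpo7, so its reads cannot be told apart from those of Xpo7.

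**Figure D2:**
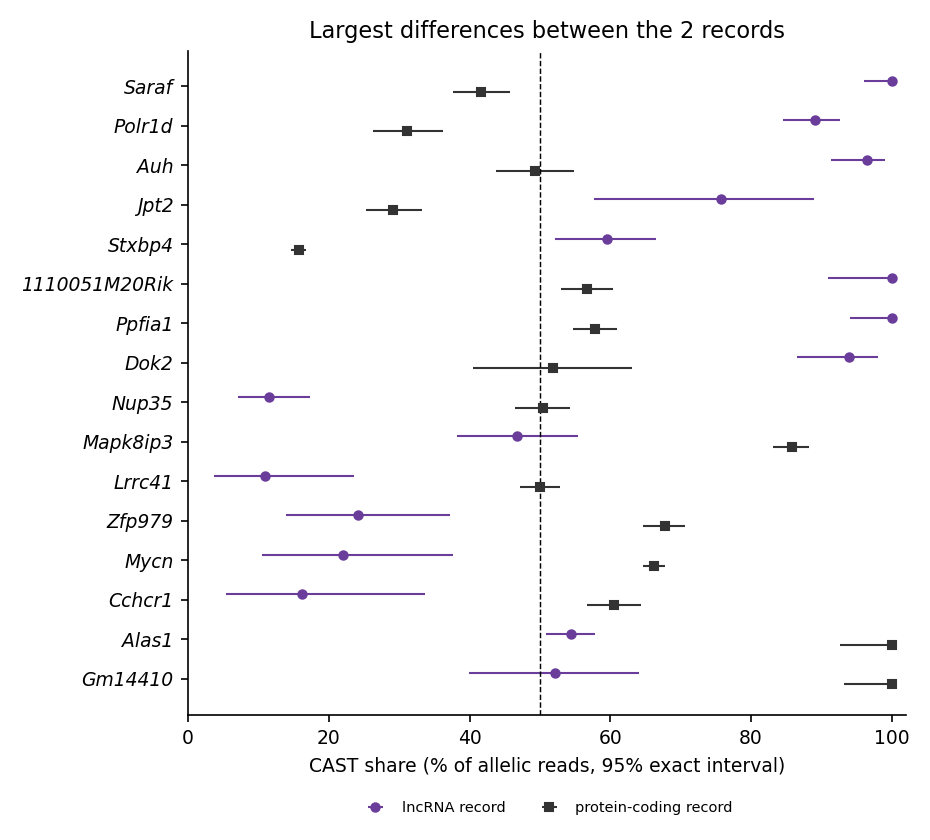
CAST share (x axis, % of allelic reads) of the lncRNA record (purple circles) and the protein-coding record (dark squares) of the 16 genes with the largest differences, 8 in each direction (y axis, by gene). Bars are exact 95% intervals, and the dashed line marks 50%. Saraf has the widest gap, with 100% in the lncRNA record and 41.7% in the protein-coding record.

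In the other direction, Mycn, a transcription factor of the Myc family expressed in mESCs, had 9 CAST and 32 S129 reads in its lncRNA record, 22.0% CAST (10.6 to 37.6). The Mycn protein-coding record had 2311 CAST and 1179 S129 reads, 66.2% CAST (64.6 to 67.8). The lncRNA record (chr12:12940944-12941825) starts 1209 bases upstream of the protein-coding one (chr12:12936096-12940616) and does not overlap it, so the S129-sided reads lay before the protein-coding record and the CAST-sided ones within it. Nup35, a nuclear pore subunit, had 19 CAST and 146 S129 reads in the lncRNA record, 11.5% CAST (7.08 to 17.4), and 327 CAST and 322 S129 reads in the protein-coding record, 50.4% CAST (46.5 to 54.3). The protein-coding share of Nup35 was balanced with the nested reads included. Outside the lncRNA record it had 308 CAST and 176 S129 reads, 63.6% CAST (59.2 to 67.9).

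Mapk8ip3, a scaffold of JNK signalling and axonal transport, had 65 CAST and 74 S129 reads in the lncRNA record, 46.8% CAST (38.3 to 55.4). The protein-coding record had 625 CAST and 103 S129 reads, 85.9% CAST (83.1 to 88.3), and the part of it outside the lncRNA record had 560 CAST and 29 S129 reads, 95.1% CAST (93.0 to 96.7). Here the lncRNA window was the balanced one. The Mapk8ip3 protein-coding record also lies over Nme3, another expressed gene, so reads of Nme3 can enter it. Lrrc41, a leucine-rich repeat protein, had 5 CAST and 41 S129 reads in its lncRNA record, 10.9% CAST (3.62 to 23.6), and an even 592 CAST and 592 S129 reads in the protein-coding record. Cchcr1, a coiled-coil protein, had 5 CAST and 26 S129 reads in its lncRNA record, 16.1% CAST (5.45 to 33.7), and 395 CAST and 257 S129 reads in the protein-coding record, 60.6% CAST (56.7 to 64.4). Lrrc41 and Cchcr1 both had 2 variants in the lncRNA record, so each S129-sided share rests on few positions.

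In Alas1 and Gm14410 the protein-coding record was the one with a single allele. Alas1, which encodes the rate-limiting enzyme of heme synthesis outside erythroid cells, had 450 CAST and 378 S129 reads at 10 variants in the lncRNA record, 54.3% CAST (50.9 to 57.8), and 48 CAST and 0 S129 reads at 1 variant in the protein-coding record. The Alas1 lncRNA record has 10 exons and the chosen protein-coding transcript has 4, and the lncRNA span is the longer one here. Gm14410, a predicted gene on distal chromosome 2, had 37 CAST and 34 S129 reads in the lncRNA record, 52.1% CAST (39.9 to 64.1), and 52 CAST and 0 S129 reads in the protein-coding record. The zeros allow S129 shares of up to 6.25% in Alas1 and 5.77% in Gm14410. Whether similar copies elsewhere in the genome bear on the reads of Gm14410 or of Zfp979 was not tested. The other protein-coding records with reads of CAST alone, named after their values were seen, were Ltbp4 (100 reads) and Cyb5d1 (43 reads), and all 4 of these records had 1 to 3 variants.

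Records were also classed by allele-specific expression (ASE), defined as at least a 2-fold difference between CAST and S129 reads, an adjusted p of at most 0.05 (two-sided exact binomial test, Benjamini-Hochberg over 18632 records with allelic reads) and a TPM of at least 1. Of 15935 records with such a TPM, 14.1% were ASE, 8.33% toward CAST and 5.78% toward S129. Among the 170 genes, 103 lncRNA records (60.6%) and 43 protein-coding records (25.3%) were ASE, against 13.8% and 9.74% over all 3347 genes. In 122 of the 170 (71.8%; 9.59% over all 3347) exactly 1 of the 2 records was ASE. These calls use the same reads as the rule, so nothing is read from the excess. With an assumed intra-gene correlation of 0.05 between reads, 33 lncRNA and 9 protein-coding records of the 170 genes were ASE, and 42 genes had exactly 1 ASE record. A CAST lncRNA record stood with a biallelic protein-coding record in 53 of the 170 genes, against 133 of all 3347, and an S129 lncRNA record with a biallelic protein-coding record in 38, against 96 of all 3347. A biallelic lncRNA record stood with a CAST protein-coding record in 22 genes (47 of all 3347) and with an S129 one in 9 (45 of all 3347). Both records were ASE toward CAST in 9 genes (152 of all 3347) and toward S129 in none (79 of all 3347; same allele in 6.9% of all 3347). Neither was ASE in 36 of the 170, against 2792 of all 3347.

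The records pointed to opposite alleles in Polr1d, Jpt2 and Zfp979. In Polr1d, a subunit shared by RNA polymerases I and III, the lncRNA record had 228 CAST and 28 S129 reads, 89.1% CAST (84.6 to 92.6), and the protein-coding record 111 CAST and 246 S129 reads, 31.1% CAST (26.3 to 36.2). The Polr1d lncRNA record (chr5:147105366-147110986) starts 28.3 kb downstream of the protein-coding one (chr5:147077050-147079086), with no base in common. The adjusted p was 8.7e-39 for the lncRNA and 5.5e-12 for the protein-coding record by the exact binomial test, and the log2 ratio of CAST over S129 reads was 3.03 and -1.15, so the protein-coding call lay close to the 2-fold minimum. In Jpt2, named for its homology to the microtubule-associated Jupiter protein of Drosophila, the nested lncRNA record had 25 CAST and 8 S129 reads, 75.8% CAST (57.7 to 88.9), and the protein-coding record 158 CAST and 384 S129 reads, 29.2% CAST (25.4 to 33.2). Its lncRNA call was the weakest of the 3, with an adjusted p of 0.012 in the exact test, and the opposite calls of Jpt2 were lost with an intra-gene correlation of 0.01, which widens the spread beyond counting error.

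Zfp979, of the zinc finger family, had 14 CAST and 44 S129 reads at 2 variants in the lncRNA record, 24.1% CAST (13.9 to 37.2), and 667 CAST and 318 S129 reads in the protein-coding record, 67.7% CAST (64.7 to 70.6). Both transcripts begin in the same stretch. Its RefSeq sequence (chr4:147642508-147642613, minus strand, GRCm38.p6) is shown 5′ to 3′ because it holds both starts, with the first base of the protein-coding transcript and then that of the lncRNA transcript in capitals.
Zfp979 start region: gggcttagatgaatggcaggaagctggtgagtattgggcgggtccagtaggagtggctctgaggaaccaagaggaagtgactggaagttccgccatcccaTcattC
The 2 starts are 5 bases apart, so opposite shares were read from transcripts annotated to the same start region. With an assumed intra-gene correlation of 0.01, opposite calls remained in Zfp979 and Polr1d. With a correlation of 0.05 no gene had opposite calls.

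Highly expressed genes were among the 170 as well. Eif4a1, the RNA helicase of translation initiation, had TPM values of 360.7 in the lncRNA and 446.8 in the protein-coding record. Its lncRNA record had 69 CAST and 53 S129 reads, 56.6% CAST (47.3 to 65.5), and its protein-coding record 401 CAST and 990 S129 reads, 28.8% CAST (26.5 to 31.3). Taf1d, a subunit of the RNA polymerase I selectivity factor, had 708 CAST and 264 S129 reads in the lncRNA record, 72.8% CAST (69.9 to 75.6), and 1177 CAST and 1189 S129 reads in the protein-coding record, 49.7% CAST (47.7 to 51.8). The Taf1d lncRNA record had a TPM of 445.8, against 120.5 for the protein-coding record, and lies over Cep295. Serbp1, an mRNA-binding protein, had 395 CAST and 225 S129 reads in the lncRNA record, 63.7% CAST (59.8 to 67.5), and 1517 CAST and 2080 S129 reads in the protein-coding record, 42.2% CAST (40.6 to 43.8). The Serbp1 lncRNA record overlaps Gm38825, another expressed gene. In Serbp1 a CAST-sided lncRNA record stood beside an S129-sided protein-coding record. In Eif4a1 the protein-coding record was S129-sided, while the interval of the lncRNA record, with 2 variants, included 50%. The protein-coding record of Taf1d was balanced.

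Of 11 gene lists, 5 held at least 1 discordant gene. Besides the imprinted genes, which follow a list used by the study, the lists were set by the first letters of the gene symbol, so genes of the same role with another symbol, such as Auh, Polg, Echdc2, Serbp1 and Tdg (named here after their values were seen), are in none of them. The mitochondrial list had 4 among 87 genes with both records. Mrps12, a protein of the small mitochondrial ribosome subunit, had 435 CAST and 102 S129 reads in the lncRNA record, 81.0% CAST (77.4 to 84.2), and 891 CAST and 664 S129 reads in the protein-coding record, 57.3% CAST (54.8 to 59.8). The other members of this list had the more S129 lncRNA record. They were Cox6c, a subunit of cytochrome c oxidase, at 19.4% CAST in the lncRNA and 40.5% in the protein-coding record, Slc25a12, the aspartate-glutamate carrier, at 18.5% and 40.4%, and Sdhaf4, an assembly factor of complex II, at 55.0% and 75.0%. The lncRNA records of Cox6c (31 reads) and Sdhaf4 (40 reads) had 1 variant each, and in both genes the intervals of the 2 records overlapped. The Slc25a12 lncRNA record had 54 reads at 5 variants. The translation list had 2 among 23, Eif4a1 and Eif3i. Eif3i, a subunit of initiation factor 3, had 661 CAST and 30 S129 reads in the lncRNA record, 95.7% CAST (93.9 to 97.1), and 1188 CAST and 419 S129 reads in the protein-coding record, 73.9% CAST (71.7 to 76.1). Both Eif3i records were ASE toward CAST, and its protein-coding reads outside the lncRNA record were 57.5% CAST (54.3 to 60.8).

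The zinc finger list had 3 of 93, Zfp979, Zfp326 and Zfp583. Zfp326 had CAST shares of 33.1% in the lncRNA and 53.6% in the protein-coding record, and Zfp583 of 57.9% and 30.7%. The ubiquitin list had 3 of 68. Among them, Fbxl18, an F-box protein, had CAST shares of 80.7% in the lncRNA and 60.3% in the protein-coding record, and Ube4b, a ubiquitin chain assembly factor, of 20% and 44.1%. The Ube4b lncRNA record had 30 reads, the minimum of the rule, at 2 variants. The list of small GTPases and vesicle genes had 2 of 44, Arl13b, a GTPase of the primary cilium, and Arl6ip1, which shapes the endoplasmic reticulum and is no GTPase itself. Arl13b had 63.3% CAST in the lncRNA and 39.8% in the protein-coding record, and Arl6ip1 60.8% and 40.8%. The lists of imprinted genes (17 with both records, after Gnas had been left out by name), splicing and RNA binding (43), cell cycle and DNA repair (53), chromatin (26), solute carriers other than Slc25 (37) and histones (3) held none. The list shares, 0.00 to 8.70%, stand beside the 5.08% over all 3347 genes, and the lists are small. Over all list genes with both records, the median absolute difference in share was 0.0255 (histones) to 0.0437 (chromatin) by list, against 0.0345 over all 3347 genes.

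The rule did not name the position of the lncRNA record, but spans that overlap can share reads, which limits the difference. Over all 3347 genes, 297 (8.87%) had identical reads in both records and could not be discordant. In 104 of the 170 genes (61.2%; 71.2% over all 3347) the lncRNA record lay within the protein-coding record, and in 4 it contained the protein-coding record. In 42 the spans overlapped in part, and in 20 (11.8%; 3.65% over all 3347) they shared no base. Of 122 genes with separate spans, 16.4% were discordant, against 4.36% of 2384 genes with a nested lncRNA record. Genes with separate spans, named after their values were seen, included Mycn, Polr1d, Taf1d, Dok2, Arl13b, Polg, Bicral and Thy1. Polg, the mitochondrial DNA polymerase, had 68 CAST and 14 S129 reads in the lncRNA record, 82.9% CAST (73.0 to 90.3), and 52 CAST and 48 S129 reads in the protein-coding record, 52.0% CAST (41.8 to 62.1). Bicral had 22 CAST and 148 S129 reads in the lncRNA record, 12.9% CAST (8.29 to 18.9), and 158 CAST and 166 S129 reads in the protein-coding record, 48.8% CAST (43.2 to 54.4). Thy1 had 18 CAST and 77 S129 reads in the lncRNA record and 17 CAST and 23 S129 reads in the protein-coding record, with intervals that overlapped.

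The lncRNA transcript started downstream of the protein-coding one in 122 genes (71.8%; 78.8% over all 3347) and upstream in 44 (25.9%; 18.9% over all 3347). Both started from the same base in 4 (2.35%; 2.27% over all 3347). Starts lay within 100 bases of each other in 51 genes (30%; 34.0% over all 3347), and the median distance was 832 bases, against 428 over all 3347. The lncRNA records had a median span of 5.48 kb and 3 exons, against 8.60 kb and 4 exons over all 3347. A median of 56.9% of the lncRNA exon bases lay in coding exons, against 73.5% over all 3347, and in 22 genes (12.9%; 4.71% over all 3347) none did. Discordant lncRNA records were thus shorter and shared less exon sequence with the coding transcript, as a description of medians.

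Since all reads of a nested lncRNA record also count in the protein-coding record, the protein-coding share already contains them. Spans that overlap in part can share reads as well. The lncRNA spans of Saraf, Stxbp4 and 1110051M20Rik start 1, 11 and 15 bases outside the coding span and otherwise lie inside it, and they are not among the nested genes. In the 104 nested genes the lncRNA record held a median of 8.96% of the protein-coding reads (0.570 to 43.0%), against 29.1% over all genes with nested records. Taking these reads away left at least 30 reads in each of the 104. The share inside the lncRNA record was farther from 50% than the share outside it in 77 genes. The outside share lay between 40 and 60% in 56, and inside and outside lay on opposite sides of 50% in 62. These counts were not made over all genes with nested records, and the rule used the shares, so nothing is read from them. No discordant gene was found where the nested record held 50% or more of the reads, among 742 genes, where the overlap itself limits the difference. Where it held under 5%, 27 of 203 genes (13.3%) were discordant.

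**Figure D3:**
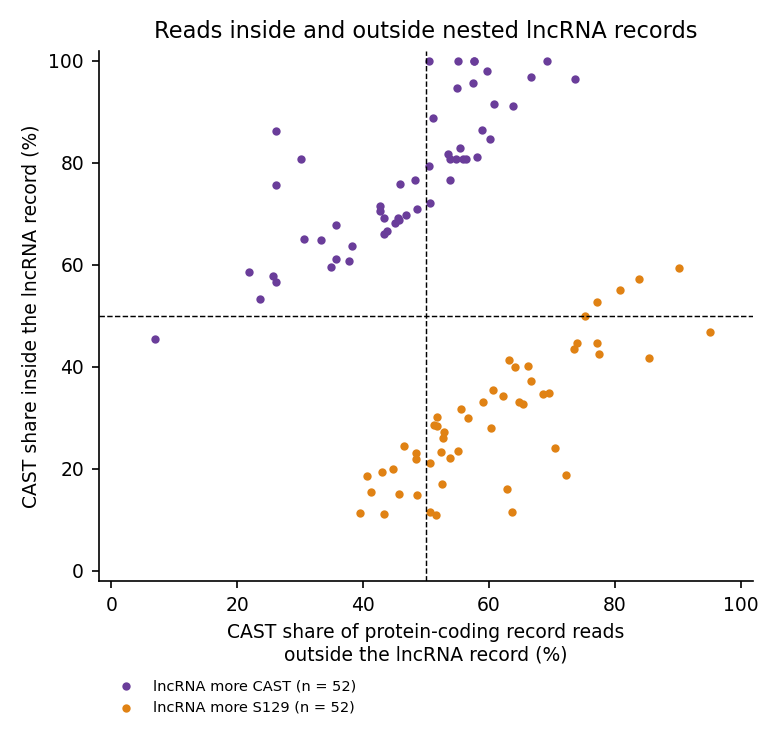
CAST share inside the nested lncRNA record (y axis, % of allelic reads) against the CAST share of the protein-coding record's reads outside it (x axis, % of allelic reads), 1 point for each of 104 genes. Purple marks the 52 genes with the more CAST lncRNA record and orange the 52 with the more S129 one, and dashed lines mark 50%. Inside and outside lie on opposite sides of 50% in 62 genes, a count not made over all genes with nested records.

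Depth and the number of variants moved with the discordance. The lncRNA records of the 170 genes had a median of 105.5 allelic reads (30 to 4725) at 5 variants, and the protein-coding records 995 reads (32 to 31039) at 24 variants. Over all 3347 genes the medians were 263 reads at 9 variants and 970 reads at 27 variants. Of genes with 30 to 99 reads in the lncRNA record 10.5% were discordant, against 5.16% at 100 to 299 reads, 2.77% at 300 to 999 reads and 1.24% (6 of 484) at 1000 reads or more. Likewise, 10.2% of genes with 1 or 2 lncRNA variants were discordant, against 2.40% of those with 21 or more. The part of depth and variant number in the discordance was not tested. The exact intervals of the 2 records overlapped in 9 of the 170 genes, against 82.1% of all 3347. Because the rule chose genes by the difference between these same shares, fewer overlaps follow from the choice itself. Reads of a nested lncRNA record also enter both intervals, so the 2 intervals are not independent. This comparison is therefore a description only and does not show that the discordance exceeds counting error.

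**Figure D4:**
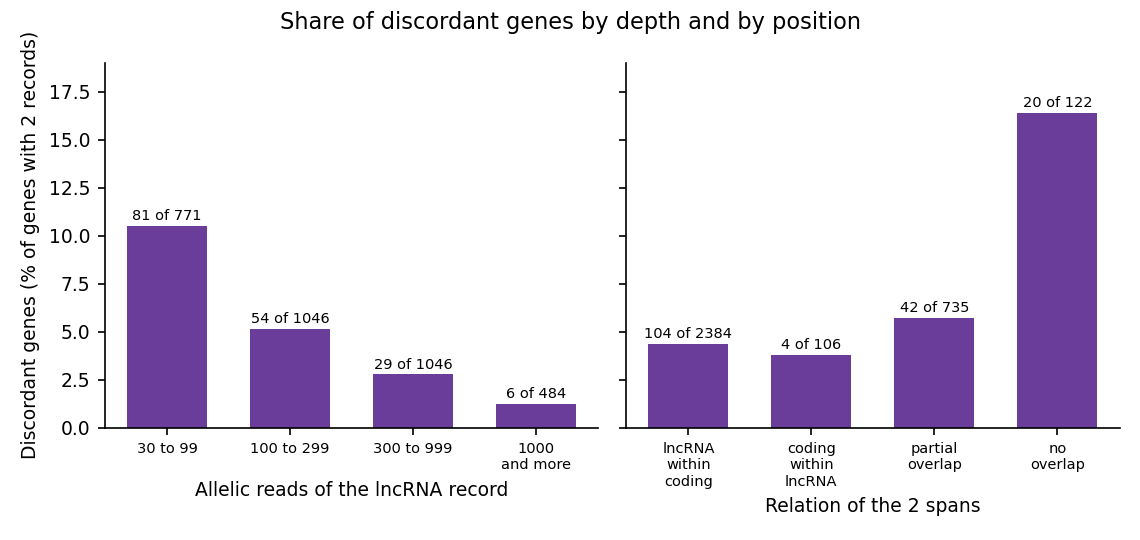
Percentage of genes with both records that were discordant (y axis, starting at 0), by the allelic reads of the lncRNA record (left) and by the relation of the 2 spans (right). Labels give discordant genes of all genes in the bin, from 81 of 771 at 30 to 99 reads to 6 of 484 at 1000 or more, and 20 of 122 where the spans share no base. Spans that overlap can share reads, which limits the difference.

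The discordant genes with the deepest lncRNA records, named after their values were seen, are given as a description. They were 6 of the 484 genes with 1000 or more lncRNA reads (1.24%). The rule chose them by this same share difference, so they cannot show whether the discordance holds at high counts. Nup155, a nuclear pore subunit, had 1151 CAST and 478 S129 reads in a nested lncRNA record, 70.7% CAST (68.4 to 72.9), and 3425 CAST and 3536 S129 reads in the protein-coding record, 49.2% CAST (48.0 to 50.4). Echdc2, a mitochondrial enoyl-CoA hydratase family member, had 978 CAST and 113 S129 reads in the lncRNA record, 89.6% CAST (87.7 to 91.4), and 4507 CAST and 2598 S129 reads in the protein-coding record, 63.4% CAST (62.3 to 64.6). Epb41l4a had 313 CAST and 733 S129 reads in the lncRNA record, 29.9% CAST (27.2 to 32.8), and 2289 CAST and 2241 S129 reads in the protein-coding record, 50.5% CAST (49.1 to 52.0). Ggnbp1 and Fuz were the reverse case, with 4725 and 1922 reads in lncRNA records that overlap Bak1 and Ap2a1, and only 65 and 96 reads in the protein-coding records. Fastkd3 had 1046 reads in the lncRNA record and 32 in the protein-coding record, and its intervals overlapped.

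In 10 genes the lncRNA record had CAST reads only, and in none S129 reads only, against 22 with CAST reads only and 1 with S129 reads only over all 3347. Named after their values were seen, they were Saraf, Tom1, Trmt1, Ehd4, Ppfia1, 1110051M20Rik, Snx13, Itpr3, Snapc4 and Tyro3, with 38 (Itpr3) to 117 (Tyro3) reads at 1 to 3 variants. In all of them the CAST base was the one that differs from the reference genome. Trmt1, a tRNA methyltransferase, had 55 CAST and 0 S129 reads in its lncRNA record and 805 CAST and 577 S129 reads in the protein-coding record, 58.2% CAST (55.6 to 60.9). Itpr3, an inositol trisphosphate receptor, had 38 CAST and 0 S129 reads in its lncRNA record and 444 CAST and 181 S129 reads, 71.0% CAST (67.3 to 74.6), in its protein-coding record. Over the 170 genes, all lncRNA variants were non-reference on CAST in 108 (63.5%; 66.1% over all 3347) and all were non-reference on S129 in 2.

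Reads of neighbouring genes can enter a span, since use of the strand is not stated for the allelic counts. Another expressed gene overlapped the lncRNA record in 26 of the 170 genes (15.3%; 14.6% over all 3347), in 24 of them on the opposite strand. One overlapped the protein-coding record in 53 (31.2%; 25.4% over all 3347). Among these protein-coding records were those of Mapk8ip3 (over Nme3), Alas1 (4930500F10Rik), Taf1d (4931406C07Rik), Lrrc41 (Rad54l) and 1110051M20Rik (Arfgap2). With both records required to be free of such genes, 109 of the 170 remained, an alternative chosen after seeing the data.

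The level of the 2 records was not tied to the direction by the rule. The lncRNA records had a median TPM of 8.80 (1.00 to 446) and the protein-coding records of 6.95 (1.01 to 447). The log2 ratio of lncRNA over protein-coding TPM had a median of -0.00071 and ran from -3.38 to 3.92. The lncRNA TPM was the higher one in 85 genes (50%; 51.3% over all 3347), and the values lay within 2-fold in 110 (64.7%; 75.6% over all 3347). Auh had the higher lncRNA level, with TPM values of 10.1 in the lncRNA and 1.22 in the protein-coding record, and Mycn the lower one, with 48.5 and 122.7. Reads of a nested span enter both TPM values, so the ratio compares windows and not separate RNAs.

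**Figure D5:**
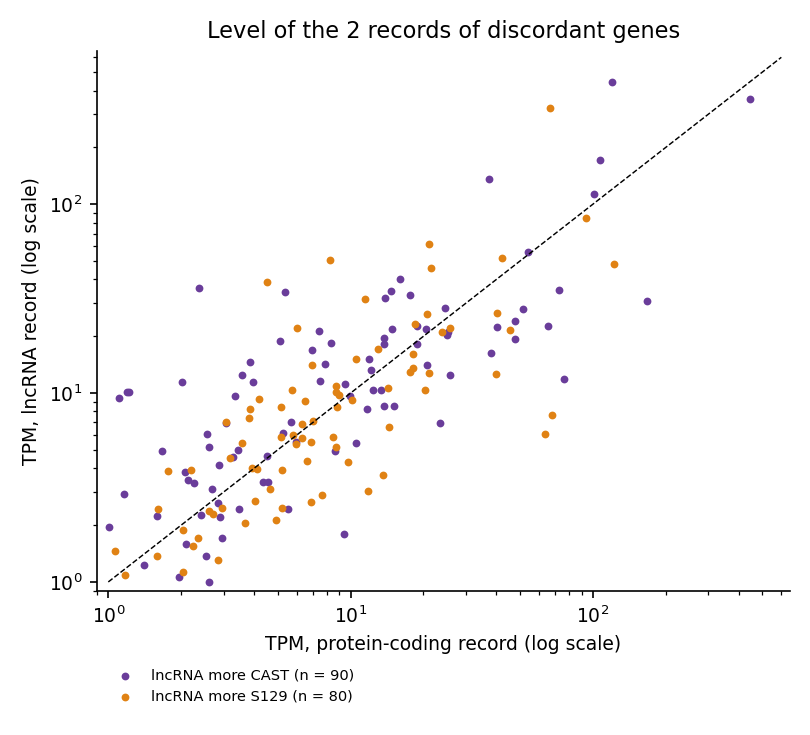
TPM of the lncRNA record (y axis, log scale) against TPM of the protein-coding record (x axis, log scale) of the 170 discordant genes, coloured by the direction of the share difference (purple, lncRNA more CAST, n = 90; orange, lncRNA more S129, n = 80). Points lie on both sides of the dashed line of equal TPM, with the lncRNA TPM higher in 85 genes.

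Discordant genes lay on all 19 autosomes, from 1.47% of 68 genes on chromosome 18 to 8.94% of 179 genes on chromosome 17. The direction varied as well. On chromosome 1 the lncRNA record was the more CAST one in 1 of 9 genes, and on chromosome 8 in 10 of 13. These counts are small and were not tested.

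Of the genes nearest the limit of 20 points, Sdhaf4 met it exactly, with 22 CAST and 18 S129 reads in the lncRNA record and 132 CAST and 44 S129 reads in the protein-coding record. R3hcc1 was 76.9% CAST in the lncRNA and 56.9% in the protein-coding record, and Arl6ip1 was 60.8% and 40.8% CAST in these records. Just outside were Nudc, a nuclear migration factor, with 76.1% CAST in the lncRNA and 56.1% in the protein-coding record, Akt1, a kinase of insulin and growth factor signalling, with 62.8% and 42.8%, and Elob, an elongin subunit, with 56.8% and 36.9%. Nudc had 1161 lncRNA reads and missed the limit, while Sdhaf4 met it with 40, each at 1 variant.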

How the data were processed

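Stranded total RNA libraries from 2 replicates of F123 mESCs were aligned by the authors to mm10 (GRCm38.p6, Ensembl 98) with STAR (version 2.7.2c) and the F123 variants, and Picard removed duplicates. For the allelic counts, the authors ran GATK at variants in exons and introns, summed the variants of each record and pooled both replicates. A minimum of 20 reads at a variant is stated, yet some records hold 8. For the deposited TPM values, HTSeq reads with an alignment quality of at least 10 were scaled by the authors, who kept 1 transcript per gene and biotype. Columns with the authors' own p-values, fold changes, ratios and ASE classes were not used.

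From these columns, CAST shares with exact intervals, exact binomial ASE calls with Benjamini-Hochberg adjustment, and overlaps of spans were computed in Python (3.11.15) with scipy (1.17.1), pandas (2.3.3) and numpy (2.4.6), and plotted with matplotlib (3.10.9). The calls were tested on simulated data. Exons and transcript ends came from GENCODE M21 (Ensembl 96) and the start region from RefSeq, which lists a promoter for 134 of the 170 genes. The members, lists and alternatives were chosen with earlier results of these data known. Named genes were the 8 with the largest difference in each direction, those with ASE records of opposite alleles, the 5 with the highest protein-coding TPM, list members, and the 3 nearest the limit on each side. A list member is not reported here. Alternatives changed the minimum of reads, TPM, variants and difference, an added read, the reads of nested records, the null share, an intra-gene correlation of reads, the thresholds of the calls and a pseudocount. Depth cannot be split by replicate.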

Additional observations from a re-analysis of the deposited data

How the results depend on the processing

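With the main settings, 170 genes were discordant, 122 had exactly 1 ASE record, 90 had the more CAST lncRNA record, the median absolute difference in share was 0.242 and the median log2 TPM ratio -0.00071. With at least 100 allelic reads, 81 genes remained, 57 with 1 ASE record and 44 with the more CAST lncRNA record. With a TPM of at least 5 these counts were 96, 68 and 51. A difference of at least 0.15 gave 301 genes, 160 with the more CAST lncRNA record and a median of 0.210, and one of at least 0.30 gave 42 genes, 38 with 1 ASE record, 22 with the more CAST lncRNA record, a median of 0.381 and a log2 TPM ratio of -0.25. Without the reads of nested lncRNA records in the protein-coding record, 293 genes were discordant, 164 of them with the more CAST lncRNA record, and the difference was -0.52 in Nup35 and -0.48 in Mapk8ip3. This setting enlarges the difference of every nested gene by construction. An intra-gene correlation of 0.05 left 42 genes with exactly 1 ASE record, against 105 with one of 0.01. With only records free of other expressed genes, chosen after seeing the data, 109 genes, 79 and 55 remained. In every setting that changed the set of genes, more of them had the more CAST than the more S129 lncRNA record, and the median log2 TPM ratio, near 0, took either sign. No paired analysis was possible because both replicates are summed in the allelic counts, and no replicate could be left out. Depth limits the lncRNA records, of which 81 had under 100 allelic reads.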
